A study of Mus musculus with 6 samples.

Results

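The nuclear genes of the mitochondrial respiratory chain and of ATP synthase were examined in sorted mouse rod photoreceptors. Members were the protein-coding genes on main chromosome sequences whose symbol begins with Nduf and a subunit letter and number, Sdha to Sdhd, Uqcr, Cyc1, Cycs, the Cox4i and Cox5 to Cox8 families, and Atp5. This rule found 87 genes of 52143 in the deposited table, with 86 distinct symbols because Atp5o has 2 entries. They comprised 35 genes of complex I, 4 of complex II, 9 of complex III, cytochrome c, 20 of complex IV and 18 of complex V. Ndufa4 and Ndufa4l2 were counted with complex IV, where NDUFA4 protein is now placed. Another 3 entries on patch sequences (copies of Uqcrc1, Ndufs3 and Atp5a1) and 12 entries that match by name without being protein coding, 11 of them processed pseudogenes, were not members. Ndufab1, a complex I subunit, falls outside the naming rule. No member is named Ndufb1, and Ndufb1-ps is among the 12 entries that are not protein coding.

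Newborn mice of both groups were electroporated in vivo in the retina, and EGFP-positive cells were sorted on postnatal day 10. In all retinas the Nrl promoter drove EGFP in rods (vector at 1.5 µg/µl), and an shRNA vector was co-delivered at 2.5 µg/µl, in a volume of 0.4 µl. The 3 control libraries received a scrambled shRNA and the other 3 received an shRNA against Jun, a transcription factor of the AP-1 family. A single Jun hairpin clone is named. No label says that the 3 libraries of a group came from separate animals, so p-values measure the spread between libraries, part of which may be technical.

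Respiratory complexes I, III and IV pass electrons from NADH to oxygen and pump protons across the inner mitochondrial membrane. Complex II feeds in electrons from succinate as a step of the citric acid cycle, and cytochrome c carries electrons from complex III to complex IV. ATP synthase, also called complex V, uses the proton gradient to make ATP. The mitochondrial genome encodes a small number of subunits and the nucleus all others, including every subunit of complex II. Rods pack their mitochondria into the inner segment and have a high demand for ATP, since ion pumping sustains the dark current.

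The targeted gene did not follow the labels, so the name Jun shRNA libraries stands for libraries labelled in that way and not for a measured loss of Jun. Levels are in CPM, the count scaled to the TMM-normalised library size. The controls had 6.46, 5.86 and 7.16 CPM of Jun, and the libraries labelled Jun shRNA had 1.80, 17.6 and 19.3 CPM. It was below the controls in 1 library and above them in the other 2, with a log2 difference of 0.99 (SE 1.44, edgeR adjusted p = 0.764). The groups also differed in depth, with 32150086 to 105800769 counts per control library and 13211279 to 13998395 per library labelled Jun shRNA, so depth and group cannot be told apart. The 12 rod markers summed to 114800 to 122900 CPM in controls and to 29000 to 45750 CPM in the Jun shRNA libraries, and none was at 0. Summed microglial markers (12 genes) ranged from 879.8 to 1261 CPM against 14.9 to 47.7 CPM, with 9 of the 12 under 1 CPM in every Jun shRNA library. Müller glial markers (12 genes) ranged from 2420 to 2557 CPM against 385 to 401 CPM, and vascular and blood markers (12 genes) from 206.6 to 371.7 CPM against 42.8 to 111 CPM. The groups overlapped for summed cone (2884 to 5015 against 2749 to 3285 CPM), bipolar (1551 to 2143 against 1236 to 2084 CPM), amacrine and ganglion (13.4 to 94.2 against 14.9 to 70.6 CPM) and pigment epithelium markers (35.9 to 143.5 against 0.321 to 86.6 CPM). Single markers within these sums differed. Positive log2 differences were found for 2 of 12 tested rod, 3 of 12 Müller glial, 3 of 10 vascular and blood and 0 of 11 microglial markers. Among 11 bipolar markers 6 were negative and 5 positive, with Sebox called lower and Prkca higher (edgeR adjusted p = 0.0124 and 0.0468). Whether these markers play a part in the results on the subunit genes was not tested. In bulk samples, fewer cells of a type and less RNA per cell cannot be told apart.

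Of the 87 members, 82 passed the filter on low counts. Those that did not were Cox6a2, Cox7b2, Cox8b, Cox8c and the second Atp5o entry (ENSMUSG00000116933). At an adjusted p of 0.05 from edgeR's quasi-likelihood test over all 12815 tested genes, 4 members were lower in the libraries labelled Jun shRNA (Sdhd, Uqcrc1, Atp5b and Atp5a1) and 0 were higher. Over all tested genes 1.35% passed as lower and 0.32% as higher, against 4.88% and 0% of the tested members. With every library thinned to the smallest total, the same 4 members passed. Limma-voom called 2 members lower, Uqcrc1 and Cox4i2, so the calls of Sdhd, Atp5b and Atp5a1 ended there (adjusted p = 0.0667, 0.0607 and 0.137). DESeq2 called 6, with Atp5d and Cox4i2 besides the 4, and neither tool called a member higher. Over all genes limma-voom called 315 lower and 127 higher of 12815, and DESeq2 1144 and 855 of 33087. At an unadjusted p under 0.05, 16 of 82 members were lower and 3 higher in edgeR's test. Of all 12815 tested genes, 1373 were lower and 786 higher at that p. The balance of the members turned with the scaling, to 11 and 11 with upper quartile factors and to 11 and 17 with library totals. The sign of the log2 difference was negative for 49 tested members and positive for 33. Their median of -0.21 lay near the median of all tested genes, -0.12, and of tested protein-coding genes, -0.32. All 3 Jun shRNA libraries lay below all 3 controls for 19 members, against 15.7% of all tested genes, and above them for 2 members, against 12.6%.

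**Figure D1:**
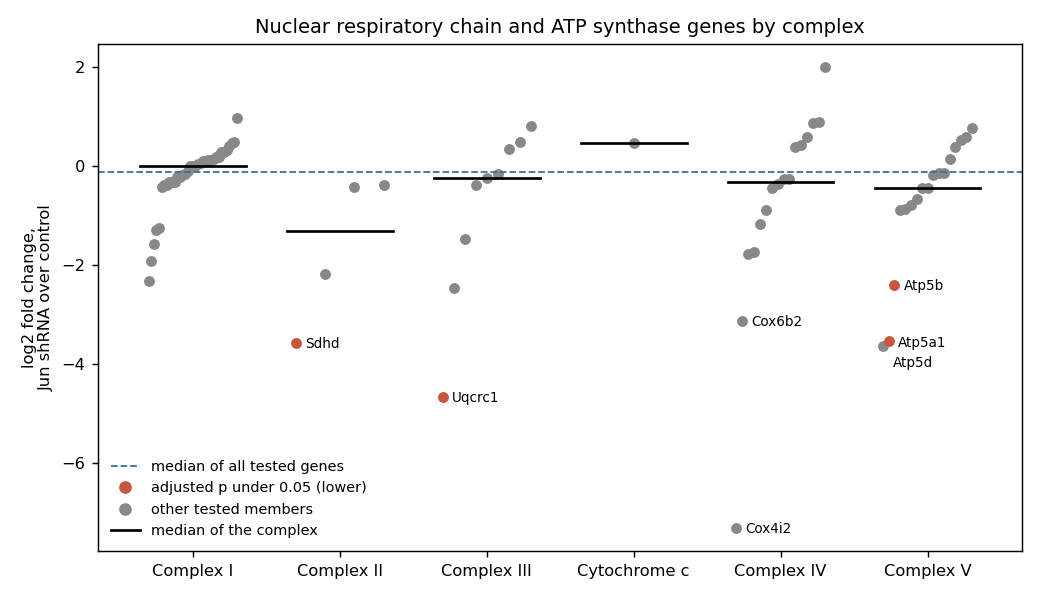
Log2 fold change (Jun shRNA over control, vertical axis) of the 82 tested subunit genes by complex, each point 1 gene. Black bars are the medians of each complex, the dashed line is the median of all 12815 tested genes (-0.12), and the 4 genes past the adjusted threshold are coloured; complex I has none, while complexes II, III and V hold 1, 1 and 2.

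The bulk of the machinery kept a similar summed level in both groups. Member transcripts together reached 55040, 41590 and 57080 CPM in the controls and 51860, 33840 and 55530 CPM in the Jun shRNA libraries, so the groups overlapped, with a ratio of means of 0.919. Before TMM scaling the members held 4.27% ± 0.70 of all counts in controls and 5.45% ± 0.83 in the Jun shRNA libraries (SD, n = 3 each). Scaling therefore sets the sign of the small differences. With library totals in place of TMM factors the median log2 difference of the members was 0.27 rather than -0.21, with 59 of 82 positive, and that of all tested genes 0.38. Sdhd, Uqcrc1 and Atp5b remained past the threshold on that scale, and Atp5a1 had an adjusted p of 0.0575.

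By complex, the summed levels of complexes I, III and IV had ratios of 0.961, 1.02 and 1.04, and their groups overlapped. Complex V summed to 14750, 11810 and 14550 CPM in the controls and to 11230, 7561 and 12350 CPM in the Jun shRNA libraries, a ratio of 0.757 with 1 Jun shRNA library inside the range of the controls. Complex II was at 1426, 1453 and 1961 CPM against 1032, 537 and 676 CPM, with no overlap and a ratio of 0.464. These ratios depend on the scaling. As shares of all counts before TMM, the ratios were 1.33, 1.42, 1.44 and 1.05 for complexes I, III, IV and V, so that of complex V turned, and the groups overlapped for all but complex III, which was higher in every Jun shRNA library. Complex II remained the lower one at 0.641, but with overlap, at 0.113, 0.124 and 0.170% of counts in controls and 0.115, 0.0715 and 0.0739% in Jun shRNA libraries.

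**Figure D2:**
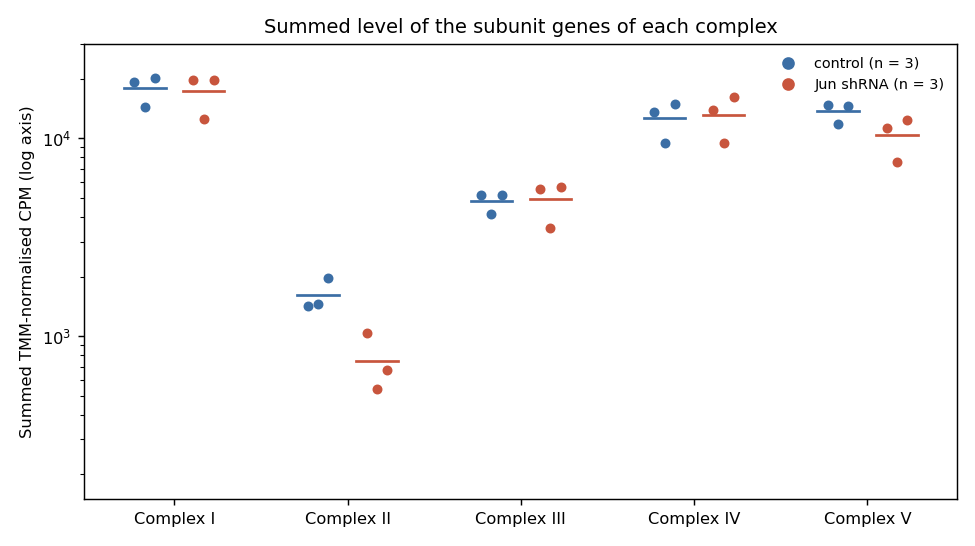
Summed TMM-normalised CPM (log axis) of the subunit genes of complexes I to V in each library, with bars at the means of 3 libraries. The groups overlap for complexes I, III, IV and V; for complex II every Jun shRNA library lies below every control on this scale, though not as a share of all counts before TMM.

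Complex II, succinate dehydrogenase, had every member negative, 4 of 4, and a median log2 difference of -1.30, although Sdhb turned positive with library totals (0.08). Sdhd encodes a membrane anchor subunit that helps to bind ubiquinone (ENSMUSG00000000171, chromosome 9, 50596357 to 50603812, GRCm38). Its controls stood at 656, 415 and 579 CPM and the Jun shRNA libraries at 45.5, 48.2 and 45.6 CPM. The Jun shRNA libraries lay close together, 11.8-fold below the controls by their means, with no overlap. The log2 difference was -3.57 (SE 0.45, adjusted p = 0.00785), the smallest adjusted p among the members. The other membrane anchor, Sdhc, was at 118, 224 and 259 CPM against 55.0, 45.8 and 31.3 CPM, also without overlap, and did not pass the test (-2.18, SE 0.65, adjusted p = 0.131). For the catalytic flavoprotein subunit Sdha and the iron-sulfur subunit Sdhb the groups overlapped, with log2 differences of -0.42 and -0.37 (adjusted p = 0.739 and 0.715).

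The promoters of the members that fell are shown because NRF1 and ETS-family factors such as GABP are textbook regulators of respiratory genes, and Jun acts through AP-1 sites. Each line holds 100 bases, 5′ to 3′ on the gene's strand, that end before both the RefSeq start site and the start in the deposited table, with capitals for motif matches (RefSeq, GRCm38.p6).
Sdhd, chr9:50603850-50603949, minus strand: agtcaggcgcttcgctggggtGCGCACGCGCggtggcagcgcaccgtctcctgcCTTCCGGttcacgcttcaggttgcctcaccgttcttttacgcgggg
Uqcrc1, chr9:108936533-108936632, plus strand: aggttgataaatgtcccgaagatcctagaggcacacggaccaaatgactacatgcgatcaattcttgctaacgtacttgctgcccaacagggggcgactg
Atp5b, chr10:128083173-128083272, plus strand: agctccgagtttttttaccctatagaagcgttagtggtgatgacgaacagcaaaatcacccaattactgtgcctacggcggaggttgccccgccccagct
In the Sdhd stretch the first capitals match the NRF1 motif (GCGCA, any base, then GCGC) and the second the ETS motif CCGGAAG on the opposite strand. The other stretches hold no match to either motif or to the AP-1 motif TGANTCA, although the full window of Uqcrc1 holds NRF1 matches outside the printed bases.

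Promoter windows of 300 bases, from 250 before to 50 after the RefSeq start, matched 67 members, and motifs were searched on both strands. The NRF1 motif was in 17 member windows (25.4%, against 5.2% of 27025 genes) and the ETS motif in 16 (23.9% against 9.9%). The AP-1 motif was in 7 member windows (10.4% against 9.0% of all genes), those of Ndufa5, Ndufa9, Ndufa13, Uqcrh, Cox7c, Atp5c1 and Atp5g1. None of those 7 genes passed the test, and none of the windows of Sdhd, Uqcrc1 and Atp5b held that motif. Only 4 of 82 tested members passed and 10.4% of windows held the motif, so these counts cannot show whether both go together. Atp5a1 had no window in the table. A match is a description of letters and does not show binding.

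In complex III the larger subunits and the small subunits had different values. Uqcrc1, a core subunit on the matrix side (ENSMUSG00000025651, chromosome 9, 108936633 to 108949623), stood at 482, 708 and 491 CPM in control libraries but at 6.73, 37.1 and 22.2 CPM in the Jun shRNA libraries. Every Jun shRNA library was far below every control, 25.4-fold by the means, although they ranged 5.51-fold among themselves. The log2 difference was -4.67 (SE 0.70, adjusted p = 0.0157). The companion core subunit Uqcrc2 (-1.48, SE 0.61, adjusted p = 0.266) and Cyc1, the cytochrome c1 subunit (-2.46, SE 1.05, adjusted p = 0.284), had no overlap between groups and did not pass. Uqcrfs1, the Rieske iron-sulfur subunit, overlapped at -0.38 (adjusted p = 0.871).

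The 5 small subunits of complex III had log2 differences between -0.23 and 0.82, with a median of 0.35, against -1.97 for Cyc1, Uqcrfs1, Uqcrc1 and Uqcrc2. These groupings were chosen after the values were seen, and no test was made between them. Uqcrb, which helps to shape the ubiquinone site, was at 1415, 683 and 1070.4 CPM in controls and 2078, 1246 and 2267 CPM in Jun shRNA libraries. The groups overlapped at 1 library, and the difference of 0.82 (SE 0.35) had an adjusted p of 0.285. Uqcrh and Uqcr10 had differences of 0.48 and 0.35 (adjusted p = 0.485 and 0.680). Cycs, cytochrome c itself, overlapped between the groups at 0.46 (SE 0.52, adjusted p = 0.685).

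ATP synthase is described by the enzyme's parts, a grouping made after the values were seen and not tested. All 5 tested genes of the catalytic F1 head and its stalk (Atp5a1, Atp5b, Atp5c1, Atp5d and Atp5e) were negative, with a median of -2.40 and no overlap between groups for 4 of the 5. Atp5b encodes the beta subunit, which carries the catalytic sites (ENSMUSG00000025393, chromosome 10, 128083273 to 128090391). Control libraries held 1884, 2093 and 1122 CPM of it and Jun shRNA libraries 357, 346 and 262 CPM. The highest Jun shRNA library was well below the lowest control, and the means differed 5.28-fold. The log2 difference was -2.40 (SE 0.34, adjusted p = 0.0133).

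Atp5a1, the alpha subunit that alternates with beta in the head (ENSMUSG00000025428, chromosome 18), was at 420.3, 917 and 388 CPM in the controls. In the Jun shRNA libraries it was at 36.8, 75.1 and 35.9 CPM, again with no overlap, at -3.55 (SE 0.58, adjusted p = 0.0230). Atp5d, the delta subunit of the central stalk, was at 282, 183 and 129 CPM against 7.57, 25.9 and 14.4 CPM. It lay as far below the controls as the alpha subunit did, with no overlap, but missed the threshold at -3.63 (SE 0.79, adjusted p = 0.0564). DESeq2, limma-trend and edgeR without a filter on low counts called it lower. Atp5c1, the gamma subunit that forms the rotor shaft, overlapped at -0.80 (SE 0.35, adjusted p = 0.294), and Atp5e did not overlap at -0.89 (SE 0.49, adjusted p = 0.394). These last values are close to those of Atp5g3 and Atp5o in other parts of the enzyme.

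The c ring, the rotor that protons turn, is encoded by Atp5g1, Atp5g2 and Atp5g3, which make the same mature protein. All 3 were negative, at -0.44, -0.18 and -0.86, and none passed edgeR's test (adjusted p = 0.563, 0.896 and 0.148). Atp5g3 had no overlap between the groups, and limma-trend on the deposited signal called it lower. The sign of Atp5g1 turned positive with library totals (0.04), and that of Atp5g2 also with upper quartile scaling (0.18). The 9 tested genes of the peripheral stalk and membrane part, with Atp5s, had a median of 0.14. Among them Atp5k, Atp5j and Atp5l had the smallest p on the positive side, at 0.78, 0.58 and 0.52 (adjusted p = 0.419, 0.425 and 0.508), and Atp5o was lowest at -0.67 (adjusted p = 0.366) with no overlap. Atp5s stood apart for its spread, from 0.230 to 77.1 CPM in controls and from 0.104 to 113 CPM in Jun shRNA libraries, so nothing can be read from its difference of -0.13.

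**Figure D3:**
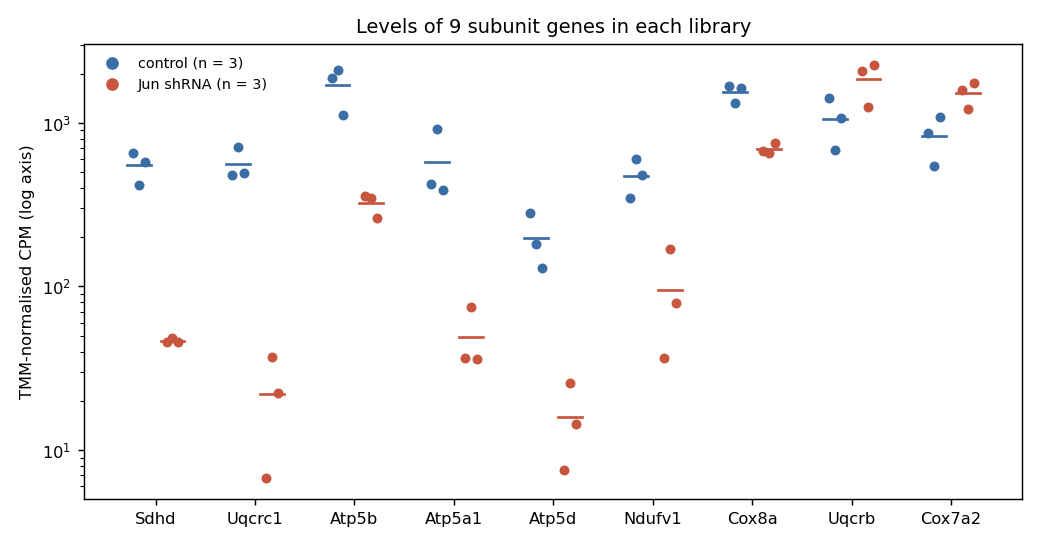
TMM-normalised CPM (log axis) of 9 subunit genes in each of the 6 libraries, with bars at the means of 3. Sdhd, Uqcrc1, Atp5b and Atp5a1 passed the test; Atp5d, Ndufv1 and Cox8a show no overlap without passing, and Uqcrb and Cox7a2 lie on the higher side.

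Complex I, the largest complex with 35 members, had 0 members past the threshold in edgeR's test and a median of 0.00. DESeq2 and limma-voom called 0 of its members as well. At an unadjusted p under 0.05, 3 of the 35 were lower and 0 higher by edgeR, against 1373 and 786 of all 12815 tested genes. Limma-trend on the deposited signal called Ndufa9, Ndufa10 and Ndufv1 lower, and edgeR without a filter on low counts called Ndufa9 and Ndufv1. Ndufv1, the flavin-binding subunit that takes electrons from NADH, was at 348, 600.0 and 480.2 CPM in controls and 36.3, 169 and 78.8 CPM in the Jun shRNA libraries. The groups did not overlap, at -2.33 (SE 0.62, adjusted p = 0.0931). The accessory subunits Ndufa9 (-1.93, SE 0.49, adjusted p = 0.0833) and Ndufa10 (-1.57, SE 0.44, adjusted p = 0.108) were also without overlap.

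The 7 core subunits of complex I encoded in the nucleus had a median of -0.38, with 6 of 7 negative. The 10 Ndufb genes, which belong to the membrane arm, lay between -0.33 and 0.47 with a median of -0.05 and overlapped in every case. The 18 other accessory subunits had a median of 0.11. On the positive side the smallest p were those of Ndufa5 (0.97, SE 0.47, adjusted p = 0.327), Ndufb5 (0.47, adjusted p = 0.633) and Ndufa12 (0.49, adjusted p = 0.636), each with overlap between the groups.

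Complex IV, cytochrome c oxidase, had 0 of 16 tested members past the threshold by edgeR. At an unadjusted p under 0.05, 3 of the 16 were lower and 2 higher, against 1373 and 786 of all 12815 tested genes. DESeq2 and limma-voom called Cox4i2 lower, and limma-trend also Cox8a. The core of the complex is encoded in the mitochondrion, and the nuclear subunits surround it. Cox8a, a small membrane subunit, came closest, at 1686, 1326 and 1638 CPM in controls and 671, 653 and 753 CPM in Jun shRNA libraries. Both groups were tight and did not overlap, at -1.16 (SE 0.27, adjusted p = 0.0628). Cox6a1 was also without overlap at -0.90 (SE 0.33, adjusted p = 0.209).

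Cox7a2 and Cox7b were the 2 members with every Jun shRNA library above every control. Cox7a2 was at 863, 542 and 1080.0 CPM against 1585, 1209 and 1758 CPM, a log2 difference of 0.87 (SE 0.33, adjusted p = 0.228). Cox7b was at 525, 373 and 672 CPM against 892, 841 and 1200 CPM, a difference of 0.90 (SE 0.35, adjusted p = 0.237). Neither passed. These 2 of 82 compare with 12.6% of all tested genes. A fit of protein-coding transcripts only, scaled over a different set of genes, gave 17 of 82, against 11.8% of all genes. Cox7c, at 0.59, overlapped (adjusted p = 0.485).

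Several complex IV and complex V subunits have alternative genes that are used in different tissues, and levels per transcript length (TPM, computed from the transcript counts) allow them to be compared. In controls Cox4i1 was at 2943 ± 622 TPM and Cox4i2, the lung-enriched and hypoxia-linked form, at 18.1 ± 10.1 TPM (SD, n = 3 each). Cox6a1 was at 2517 ± 740 TPM, while its heart and muscle form Cox6a2 had 0 counts in all 6 libraries. Cox6b1 was at 1865 ± 523 TPM and the testis form Cox6b2 at 13.5 ± 7.03 TPM. The ubiquitous form was therefore the higher of each pair by a wide margin.

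The same held for the remaining sets. Cox7a2 was at 1451 ± 439 TPM and the muscle form Cox7a1 at 4.89 ± 5.14 TPM, with the supercomplex-associated Cox7a2l at 184 ± 55.2 TPM. Cox7b was at 697 ± 177 TPM, and its paralogue Cox7b2 had 0 counts in the controls and 0.976 estimated counts in 1 Jun shRNA library. Cox8a was at 3211 ± 277 TPM, and Cox8c had 0 counts while Cox8b had 63.9 estimated counts, all in 1 control library. Ndufa4 was at 5044 ± 960 TPM and Ndufa4l2, a hypoxia-linked paralogue, at 3.18 ± 2.74 TPM. For the c ring, Atp5g3 was highest at 2412 ± 229 TPM, then Atp5g1 at 1440.1 ± 338 TPM and Atp5g2 at 236 ± 58.4 TPM, 3 levels that did not overlap in any control library. The order of the paralogues within each of these sets was the same in the libraries labelled Jun shRNA, where Atp5g3 and Atp5g1 were at 1859 ± 19.8 and 1526.5 ± 191 TPM.

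Among the low paralogues, Cox4i2 changed most in value. Its 3 controls were at 6.09, 9.28 and 17.8 CPM against 0.127, 0 and 0.0603 CPM in the Jun shRNA libraries. That is 1553 counts against 3 in total, a depth-scaled ratio of 160 with a 95% Clopper-Pearson counting interval of 54.7 to 777, which covers counting error only. The groups did not overlap, but edgeR's adjusted p was 0.103, and limma-voom and DESeq2 placed it past the threshold. Cox6b2 was at 3.03, 5.63 and 8.38 CPM against 0, 1.86 and 0.0537 CPM (adjusted p = 0.436). Cox7a1 and Ndufa4l2 overlapped (adjusted p = 0.624 and 0.658).

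Across all members, levels per length in controls were highest for Ndufa4 (5044 TPM), Atp5mpl (4649 TPM), Ndufb8 (3677 TPM), Cox6c (3618 TPM) and Cox8a (3211 TPM). Of 87 members, 31 were at or above 1000 TPM in the mean of the controls, 44 between 100 and 1000 TPM, 5 between 10 and 100 TPM and 7 under 10 TPM. Neighbours in this order were mostly within 1 SD of each other; Ndufa4 at 5044 ± 960 TPM and Atp5mpl at 4649 ± 872 TPM, for example, overlapped between libraries. Atp5b was at 1505 ± 559 TPM and Atp5a1 at 323 ± 193 TPM, Sdhd at 536 ± 80.8 TPM and Uqcrc1 at 423 ± 130 TPM. In the Jun shRNA libraries these 4, the members called lower, were at 257 ± 65.2, 34.3 ± 24.3, 61.6 ± 11.6 and 22.9 ± 18.6 TPM. Ndufa4, Atp5mpl, Ndufb8, Cox6c and Cox8a, the highest in controls, had means of 9594, 6396, 5526, 6980 and 2099 TPM there. On this scale all of these but Cox8a were above their control means. Patch entries of Atp5a1 and Uqcrc1 hold equal gene counts that are not included, so the levels of both genes may be too low.

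The size of the difference went with the length of the transcript. Across the 81 tested members with a coding length, the log2 difference had a Spearman coefficient of -0.54 with coding length, and across all 82 a coefficient of -0.46 with the length of the most abundant transcript. All tested protein-coding genes gave 0.11 (n = 9456) and 0.20 (n = 10645), and the coefficient with GC content was -0.27 for the members and -0.26 for protein-coding genes. These coefficients are across genes, which share the same 6 libraries and are not independent, and are given as a description. The 56 members with transcripts under 1000 bases had a median of -0.00, with 28 negative and 28 positive and none past the threshold.

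The 26 members with transcripts of 1000 bases or more had a median of -0.62, with 21 negative and 5 positive, and held all 4 that passed. For the 14 of 1500 bases or more the median was -1.52, against -0.30 for the 8439 protein-coding genes in that class. For the 12 members of 1000 to 1500 bases the order was the other way, with -0.37 against -0.79 for 1194 protein-coding genes. The larger catalytic and core subunits, such as Atp5a1, Atp5b, Uqcrc1, Uqcrc2, Cyc1, Ndufv1 and Ndufs1, are in the class of 1500 bases or more. Role and length therefore cannot be told apart in this set of genes. Sdhd, with a coding length of 477 bases in a transcript of 1231, and Atp5d, with 504 in 931, have short coding regions and large differences, and Cycs, with a transcript of 3123 bases and a coding length of 315 bases, is a long one with a positive value. With transcript length and GC content fitted as a smooth offset, an adjustment added after the values were seen, Sdhd and Atp5a1 stayed past the threshold and Atp5mpl joined them, while Uqcrc1 (-3.18, adjusted p = 0.0527) and Atp5b (-1.31, adjusted p = 0.0702) did not pass.

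**Figure D4:**
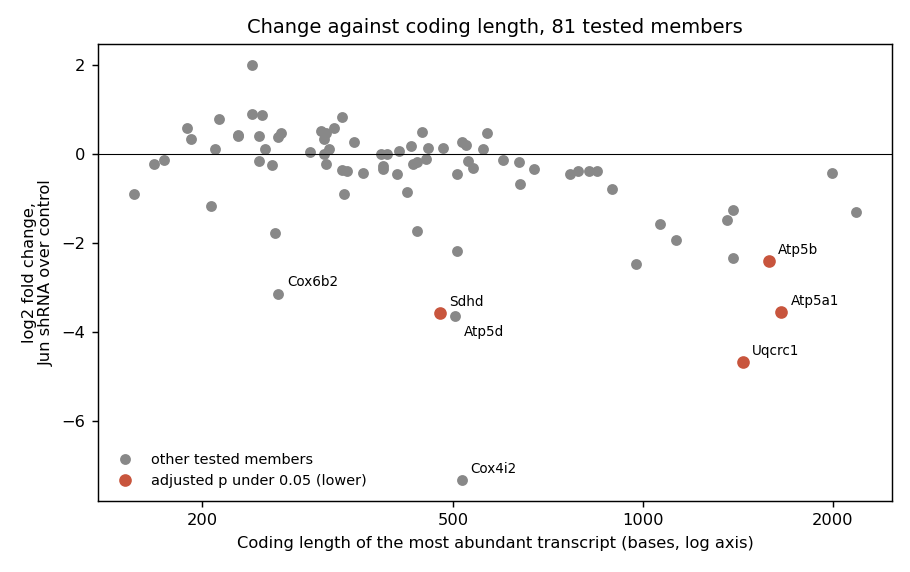
Log2 fold change (Jun shRNA over control) against the coding length of the most abundant transcript (bases, log axis) for 81 tested members, with coloured points for the 4 that passed. Differences are mostly near 0 for short coding lengths and negative for long ones, a Spearman coefficient of -0.54.

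Spread between libraries was small for these genes. Among the 67 members with a control mean of 200 to 2000 CPM, 4.48% ranged more than 3-fold between the 3 controls and 5.97% between the 3 Jun shRNA libraries. Among 935 other protein-coding genes in the same range of control means the shares were 12.3% and 35.4%. The median coefficient of variation of the members was 26.6% in controls and 28.8% in Jun shRNA libraries, against 30.3% and 42.0% in the other genes. Members that exceeded a 3-fold range included Ndufs1 (6.11-fold) and Sdha (3.56-fold) in controls, and Uqcrc1 (5.51-fold) and Ndufv1 (4.66-fold) in Jun shRNA libraries.

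The transcript table gave a further view of the members. Of 209 member transcripts tested among 20706, 3 were lower and 0 higher by edgeR, against 0.604% and 0.058% of all tested transcripts. At an unadjusted p under 0.05 26 were lower and 3 higher, 29 of 209, against 3218 of all 20706 tested transcripts in either direction. Limma-voom called 10 lower and 2 higher, the latter of Cox7a2 and Sdha, without a share over all transcripts to set beside them. The 3 lower by edgeR were the coding forms of Atp5b, Sdhd and Uqcrc1. The coding form of Atp5b was at 2757, 3534 and 1510 CPM in controls and 77.1, 50.03 and 63.8 CPM in Jun shRNA libraries, a log2 difference of -5.35 (SE 0.42, adjusted p = 0.00428). That is a larger difference than the -2.40 of the gene table, whose counts are not the sums of the transcript counts. Sdhd and Uqcrc1 gave -3.71 (adjusted p = 0.0144) and -4.83 (adjusted p = 0.0429), near their values in the gene table.

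For a few genes a larger share of the counts in the Jun shRNA libraries lay in forms that are not annotated as protein coding. Such forms held 1.13, 0.914 and 1.71% of the Atp5b counts in controls, compared with 47.2, 57.4 and 41.8% in the Jun shRNA libraries. For Uqcrc2 the shares were 1.40, 10.9 and 2.74% against 43.9, 15.6 and 77.0%. Sdha had 0.0239, 0.217 and 1.18% against 22.0, 82.7 and 9.46%, mostly in a form with a retained intron, and Ndufv1 exceeded the controls by far in only 1 Jun shRNA library (86.9%).

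Of 77 members with at least 50 transcript counts in every library, 58 have an annotated form that is not protein coding. Its share was higher in every Jun shRNA library than in any control for 12 of these, lower for 2, and overlapped for 44, Uqcrc1 among them. Over 3347 protein-coding genes with such a form, members included, 16.5% were higher in this way and 4.75% lower, so 12 and 2 of 58 are near the background. Sdhd has a single annotated form, which is coding. Summed over members, retained-intron forms held 1.30% ± 0.14 of the counts in controls and 2.38% ± 0.39 in Jun shRNA libraries (SD, n = 3 each). In other protein-coding genes the shares were 3.32% ± 0.42 and 8.90% ± 0.98. When genes were counted from protein-coding transcripts only, a fit added after the values were seen, Atp5b (-4.65, adjusted p = 0.000852), Sdhd (-3.07, adjusted p = 0.0167) and Uqcrc1 (-4.15, adjusted p = 0.0244) were lower and none was higher, against 1.2% of all genes lower. Atp5a1 kept its difference there (-3.55) with an adjusted p of 0.0615. The median of the members turned to 0.35 in this fit, with 57 of 82 positive, while the median of all genes was -0.17. Members with a single annotated form, which is coding, shifted up as well, such as Ndufa1 (from 0.11 to 0.74) and Cox8a (from -1.16 to -0.55). This fit was scaled over a different set of 9452 genes, and the part of that scaling in the turn was not tested.

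**Figure D5:**
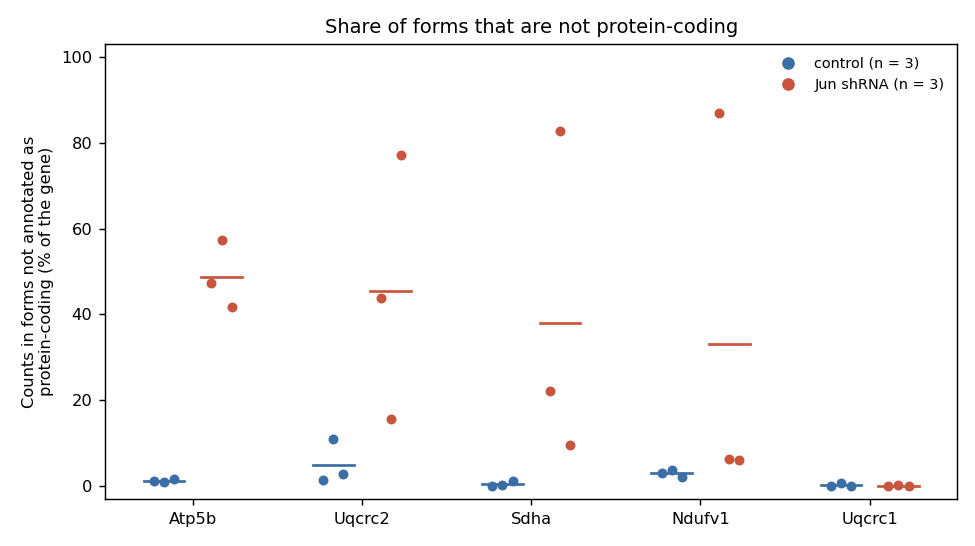
Share of each gene's transcript counts (percent) in forms not annotated as protein coding, in each library, with bars at the means of 3. Atp5b, Uqcrc2, Sdha and Ndufv1 lie higher in every Jun shRNA library than in the controls, and Uqcrc1 stays near 0 in both groups.

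Single libraries weighed on the calls, those of all genes as well as those of the members. Over all genes 173 were lower in the main fit. Without control replicates 1, 2 and 3 the counts were 36, 50 and 31. Without Jun shRNA replicates 1, 2 and 3 they were 91, 95 and 92. Without control replicate 1, 0 members passed, and the smallest adjusted p was 0.0598. Without control replicate 2 only Sdhd passed, and without control replicate 3 only Atp5b. Without Jun shRNA replicate 1 Atp5b, Sdhd and Uqcrc1 passed, without replicate 2 all 4, and without replicate 3 Atp5b and Sdhd. The log2 differences of the 4 genes stayed between -5.28 and -2.21 in these 6 fits.

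Other genes of mitochondrial energy metabolism were read from the same fit. The 13 genes encoded in the mitochondrial genome, whose products join the nuclear subunits in complexes I, III, IV and V, had 12 negative values and a median of -0.91. One passed as lower, mt-Co1, the catalytic subunit of complex IV, at 10570, 5860 and 10510 CPM against 2627, 1872 and 3417 CPM (-1.77, SE 0.30, adjusted p = 0.0272). Summed, the 13 genes were at 65770, 28510 and 58190 CPM in controls and 25940, 21410 and 32710 CPM in Jun shRNA libraries, with overlap at 1 control.

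Of 16 tested genes of the citric acid cycle and pyruvate dehydrogenase, 1 passed as lower and 0 as higher, with a median of -1.32 and 15 negative. It was Mdh2, mitochondrial malate dehydrogenase, at 961, 1098 and 954 CPM against 182, 96.5 and 198 CPM (-2.66, SE 0.40, adjusted p = 0.0157). Ogdh, a subunit of the oxoglutarate dehydrogenase complex, was the 1 gene on the positive side (1.90, adjusted p = 0.0696). Of 20 genes for import, carriers and membrane organisation, 3 passed as lower and 0 as higher, with a median of -1.49. They were the ADP/ATP carriers Slc25a4 (-2.09, adjusted p = 0.0117) and Slc25a5 (-2.57, adjusted p = 0.0335), which exchange the product of ATP synthase for ADP, and the outer membrane channel Vdac1 (-3.64, adjusted p = 0.0431).

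Genes that build or regulate the complexes had values nearer to those of all genes. Of 48 tested assembly factors 0 passed in either direction by edgeR (4 lower and 4 higher at an unadjusted p under 0.05), with a median of -0.21. Tmem186, a complex I assembly factor, had the smallest p, at 21.02, 66.8 and 68.1 CPM against 0.387, 0.316 and 0.308 CPM (-7.17, SE 1.46, adjusted p = 0.0501). Of 12 tested transcriptional regulators of mitochondrial genes 0 passed (1 lower and 0 higher at an unadjusted p under 0.05), with a median of -0.37. Esrrb was at -3.45 (adjusted p = 0.197) and Tfam, which binds and packages mitochondrial DNA, at -2.40 (adjusted p = 0.336).

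Copies of members elsewhere in the genome limit how closely some levels can be read. The 3 patch entries had the same values as Uqcrc1, Ndufs3 and Atp5a1 in every library, so the CPM given for these 3 members leave out an equal amount. Adding each entry to its member left the same 4 genes past the threshold. Of the 12 non-coding entries that match by name, Ndufb4c (134.8 CPM in controls) and Ndufb1-ps (496.7 CPM) carried most of the counts, and the others stayed under 1 CPM in every library. Ndufb1-ps is annotated as a bidirectional promoter long noncoding RNA and not as a pseudogene, and no member is named Ndufb1. Reads could be divided between pseudogene copies and their parent genes, so the level of Ndufb4 (230.3 CPM in controls) is uncertain. Neither Ndufb4c nor Ndufb1-ps passed edgeR's test (adjusted p = 0.849 and 0.840).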

How the data were processed

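RNA of sorted rods was sequenced in 6 libraries, 3 per group. The authors deposited estimated counts per gene and per transcript, used here after rounding, and a normalised gene table, used as signal because its column sums exceed those of CPM. The submitters' processing notes list, without roles, Trimmomatic 0.39, kallisto 0.44.0 and edgeR 3.28.1; the kit for full-length cDNA is not said to mark strand, per the labels. No source used here names the authors' genome build, but 81 of 87 members have the start and end of GENCODE mouse release 21 (GRCm38), which supplied transcript lengths, coding lengths, GC content and forms.

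The model had group as its only term and was fitted in R 4.3.3 with edgeR 4.0.16 (filterByExpr, TMM factors, glmQLFit and glmQLFTest). P-values were adjusted by Benjamini-Hochberg over 12815 genes or 20706 transcripts, and the threshold was 0.05. Each SE is the log2 difference divided by the square root of F. Log2 differences are Jun shRNA over control. TPM were computed from transcript counts and annotated lengths. Functions were tested on simulated counts. The named genes were those past the threshold, the 3 members with the smallest p in each direction per complex, the paralogue sets, the called transcripts and the 3 genes with the smallest p of each pathway list, of which those that help the account are printed; others were named after their values were seen. Members, lists and rules were chosen with earlier results of these data known, so none is independent evidence. Alternatives were other scalings, filters, DESeq2 1.42.0, limma 3.58.1 (voom, and trend on the deposited signal), thinning, patch copies, single libraries left out and a replicate block. Same-numbered libraries of the 2 groups did not deviate together (correlations of 0.000422, 0.00804 and -0.0151).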

Additional observations from a re-analysis of the deposited data

How the results depend on the processing

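The count of 4 members lower became 8 without a filter on low counts, 2 with limma-voom (Cox4i2 and Uqcrc1) and 6 with DESeq2. It became 11 and 10 with limma-trend when 0.5 or 2 was added to the deposited signal. The calls over all genes changed as well, from 173 lower of 12815 in the main fit. They were 573 of 33087 without the filter, 315 of 12815 with limma-voom and 1144 of 33087 with DESeq2. Limma-trend called 512 and 475 of 12815 lower. Leaving out 1 library at a time gave 0 to 4 members lower, and 31 to 95 lower over all genes. No alternative called a member higher. Member transcripts lower went from 3 to 1 with library totals and to 10 with limma-voom, which also called 2 higher. No share over all transcripts is given for these settings, so the counts cannot be set against a background. With a replicate block, which the replicate numbers do not justify as a pairing, 4 members were lower and 0 higher, and over all genes 78 were lower and 19 higher, against 173 and 41. Of 759 values of 38 named members under the alternatives, 689 kept direction and side of the threshold, 20 lost the threshold, 20 gained it and 30 changed sign; the cause was not tested.

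The signs changed as follows; none of these differences had passed the threshold. With library totals the log2 difference became 0.0446 for Atp5g1, 0.30 for Atp5g2, 0.0157 for Cox4i1, 0.20 for Cox6b1, 0.10 for Cox7a2l and 0.0821 for Sdhb. With upper quartile scaling it became 0.18 for Atp5g2 and 0.11 for Cox6b1. Thinning to the smallest total gave 0.10 for Atp5g2 and 0.0420 for Cox6b1, and limma-voom 0.0064 for Atp5g2. From protein-coding transcripts only, it was 0.17 for Atp5g1, 0.37 for Atp5g2, 0.0947 for Cox4i1, 0.30 for Cox6b1, 0.11 for Cox7a2l and 0.10 for Sdhb. With length and GC adjusted it was 0.0488 for Atp5g1, 0.55 for Atp5g2, 0.35 for Cox4i1, 0.0681 for Cox7a2l, 0.69 for Sdhb, -0.0881 for Atp5l, -0.17 for Cox7c (0.59 without it), -0.0260 for Cycs, -0.49 for Ndufa4 and -0.38 for Uqcrb (0.82 without it). The last 2 settings were chosen after seeing the data. Leaving out 1 library ranged from -0.40 to 0.0251 for Atp5g2, from -0.61 to 0.0087 for Cox6b1 and from -0.10 to 0.86 for Cycs. The lower depth of the Jun shRNA libraries limits values under about 1 CPM, such as those of Cox4i2, to a few counts.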
